A study of Mus musculus with 12 samples.

Results

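Polysome mRNA of neural stem cells (NSCs) kept in a high dose of folic acid (HF, 80 µM) was compared with the same fraction at a medium dose (MF, 10 µM). The comparison rests on 4 of the 12 libraries of the study, the 2 replicates of each dose, taken by their labels alone and without regard to any measured value. Every gene with enough counts in these libraries was tested, 13243 genes in all. The cells were adult NSCs of the subventricular zone, the strip of tissue along the lateral ventricles in which new neurons arise, from wild-type male C57BL/6 mice aged 6 to 8 weeks. Both groups grew on a poly-ornithine and laminin coat in medium with EGF, basic FGF and B27, and were collected on day 4, and by the labels they differ in the folic acid dose alone. Cycloheximide, which locks ribosomes in place on mRNA, was added before lysis, and the gradient fractions with several ribosomes per mRNA were pooled and selected for poly(A) RNA. The labels call the libraries biological duplicates without naming a separate animal or culture for each, so the p-values measure only the spread between these libraries.

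Folic acid carries the single-carbon units from which cells build purines, thymidylate and methionine. An mRNA in the polysome fraction is being read by several ribosomes at once. Its level there follows both the amount of that mRNA in the cell and the share of it that is loaded, which is why total mRNA of the same doses is set beside it below. In the subventricular zone, slowly dividing stem cells give rise to fast-dividing progenitors, and these give rise to neuroblasts that express the Dlx factors and the microtubule protein Dcx. Notch signalling between neighbouring cells, in which a Delta ligand on one cell acts on a Notch receptor on the next, holds part of the pool in the stem cell state.

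The 4 libraries held between 25715180 and 28170296 counts. The replicates of a dose were close, with a Pearson r across genes of log2(TPM + 1) of 0.997 for MF and 0.996 for HF, and each pair differed by more than sampling noise. Nes and Sox2, which mark neural stem cells, were well represented. Sox2 stood at 106 and 120 CPM (counts scaled to library size by TMM) in MF and at 118 and 109 in HF, and Nes at 542 and 628 against 470 and 366. Neither passed the test, with log2 changes, HF minus MF, near 0 for Sox2 and of -0.49 ± 0.15 for Nes (SE; adjusted p = 0.988 and 0.068). Gapdh was near equal as well, at 1328 and 1122 CPM against 1033 and 1250. Of the microglial markers, Cx3cr1, Aif1, C1qa, C1qc, Trem2 and Tyrobp had no count in any of the 4 libraries, and of the endothelial markers Cldn5 and Erg had none.

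A small part of polysome mRNA differed between the doses. With edgeR's quasi-likelihood test, 707 genes (5.34% of those tested) passed an adjusted p of 0.05 and a fold of 1.2, of which 296 were higher in HF (2.24%) and 411 lower (3.1%). Of the called genes, 684 were protein-coding. The smallest fold among them was 1.35, and 109 changed by more than 2-fold. With libraries scaled by their totals alone the split was 221 higher and 484 lower of 705, and the median log2 change of all genes, near 0 in the main fit, was -0.04. The count leans on single libraries: leaving out MF replicate 1 or 2 gave 227 or 837 calls, and leaving out HF replicate 1 or 2 gave 1657 or 456, and 122 genes (49 higher, 73 lower) were called in all 4 of these fits. Each of these fits has a single library of 1 dose, so its spread between replicates comes from the pair of the other dose alone. When the 2 polysome libraries of the low dose (LF, 1.5 µM) joined the fit and its estimate of the spread, edgeR called 0 genes between HF and MF (453 at an unadjusted p of 0.05), so none of the calls named below held there. The LF replicates were less close than those of the other doses, with an r of 0.986, and the part of this in the loss was not tested.

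The direction of change followed the base composition of the transcript. Genes lower in HF were rich in G and C, with a median transcript GC content of 58.3%, against 46.4% in genes higher in HF and 50.4% in all genes. Across the 13169 genes with a known sequence, GC content and log2 change had a Spearman correlation of -0.56, a description across genes that share the same 4 libraries. Among the 2634 genes of lowest GC content (31% to 44.6%), 3.87% were called higher and 0.228% lower, and among the 2634 of highest GC content (56% to 75%) 0.152% were called higher and 11.2% lower. The relation was near as strong for the coding part (-0.54). It was somewhat weaker for the last position of each codon (-0.50) and after the coding part (-0.48), and weak before it (-0.11). For transcript length the correlation was 0.11. In total mRNA at the same doses it was -0.17 for transcript GC content.

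**Figure D1:**
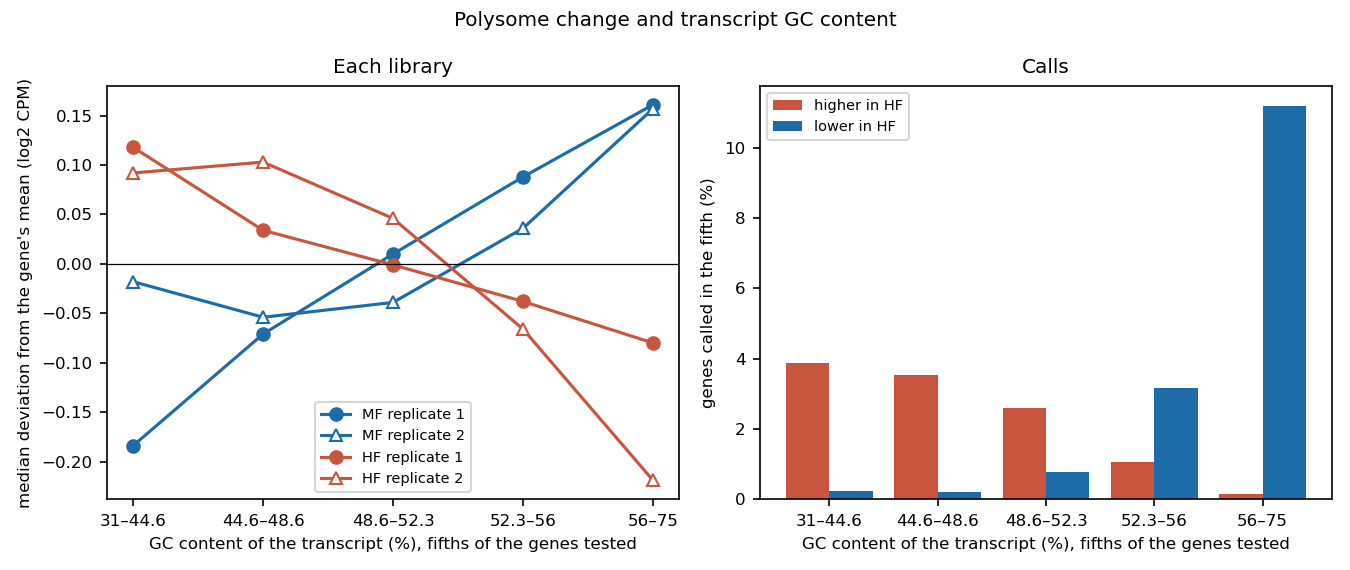
Left, the median deviation of genes from their own mean (log2 CPM) in each of the 4 libraries, in 5 equal groups by transcript GC content. Right, the percentage of genes called higher or lower in HF in each group. In the group of highest GC content both MF libraries lie above 0 (0.16 each) and both HF libraries below it (-0.08 and -0.22).

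The lines of the plot by GC content show that libraries of 1 dose also differed from each other. In the group of lowest GC content, genes deviated by -0.18 in MF replicate 1 and by -0.02 in MF replicate 2. In the group of highest GC content they deviated by -0.08 in HF replicate 1 and by -0.22 in HF replicate 2. The correlation of GC content with the difference between the replicates was 0.21 in MF and 0.13 in HF. When the trend on GC content was taken out of each library, 192 genes were called (1.46%), 135 higher (1.03%) and 57 lower (0.433%), and 158 of them were among the 707. Values with the trend removed are therefore given beside the groups of genes with several calls.

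The falls described first are the 15 of largest fold among protein-coding genes called lower with a mean of at least 5 CPM. Mfng, a glycosyltransferase that modifies Notch receptors (chr15:78755882-78773475, mm10), stood at 20.1 and 18.6 CPM in MF and at 8.30 and 7.14 in HF, a log2 change of -1.32 ± 0.18 (SE; adjusted p = 0.00313). Gadd45g, a growth arrest and DNA damage gene that is active where neurons form (chr13:51846678-51848468), went from 36.2 and 39.6 CPM to 16.7 and 15.2. Kcnc1, a voltage-gated potassium channel subunit, went from 65.4 and 65.7 CPM to 33.2 and 30.4. In all 3 the replicates lay close together and both HF libraries were far below both MF libraries. Apc2, a neural relative of the Apc tumour suppressor, fell by 1.27 on the log2 scale, and Chrna4, a nicotinic acetylcholine receptor subunit, by 1.06. The remaining genes of the 15 were Dll3, Notum, Kcnab2, Myh14, Btbd17, Romo1, Grm4, Crybb1, Tle2 and Selenoh, with log2 changes from -1.35 for Dll3 to -1.01 for Tle2, and a fall just smaller than that of Tle2 for Selenoh. Of the 15, Dll3, Mfng, Apc2, Gadd45g, Kcnab2, Chrna4 and Kcnc1 were also called with the GC trend removed, at log2 changes from -1.03 for Mfng to -0.83 for Apc2. Without MF replicate 1, Notum, Crybb1 and Tle2 lost their call, Tle2 lost it also without HF replicate 1, and Romo1 lost it without HF replicate 2.

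The 15 rises of largest fold were taken by the same rule. Plscr2, a phospholipid scramblase (chr9:92275602-92297752), stood at 9.48 and 12.7 CPM in MF and at 31.0 and 38.9 in HF, a log2 change of 1.65 ± 0.18 (SE; adjusted p = 0.00129). Thsd4, a secreted protein of the microfibril matrix, went from 7.82 and 10.2 CPM to 24.9 and 24.1. Steap1, a membrane protein of the cell surface, went from 49.7 and 62.2 CPM to 117 and 151. In each of these both HF libraries were above both MF libraries. Fam129a had the largest fold of these protein-coding genes, 3.10 and 5.66 CPM against 15.9 and 22.0, a log2 change of 2.10 ± 0.27. Lama1, a laminin chain of basement membranes, rose by a log2 of 1.67, and P2rx3, an ATP-gated ion channel, by 1.38. The other genes of these 15 were Cxadr, Prss12, Fibin, Stk32a, Cass4, Gm27029, Zcchc12, Edn1 and Sema3c, with log2 changes from 1.90 for Cxadr to 1.17 for Sema3c. All 15 remained called with the GC trend removed. MF replicate 1 was the lower MF library for all but 2 of these 15, Gm27029 and Zcchc12. Leaving out either HF library ended the calls of Cxadr and Fibin. Lama1 and Prss12 lost theirs without HF replicate 2, and Sema3c without MF replicate 1.

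**Figure D2:**
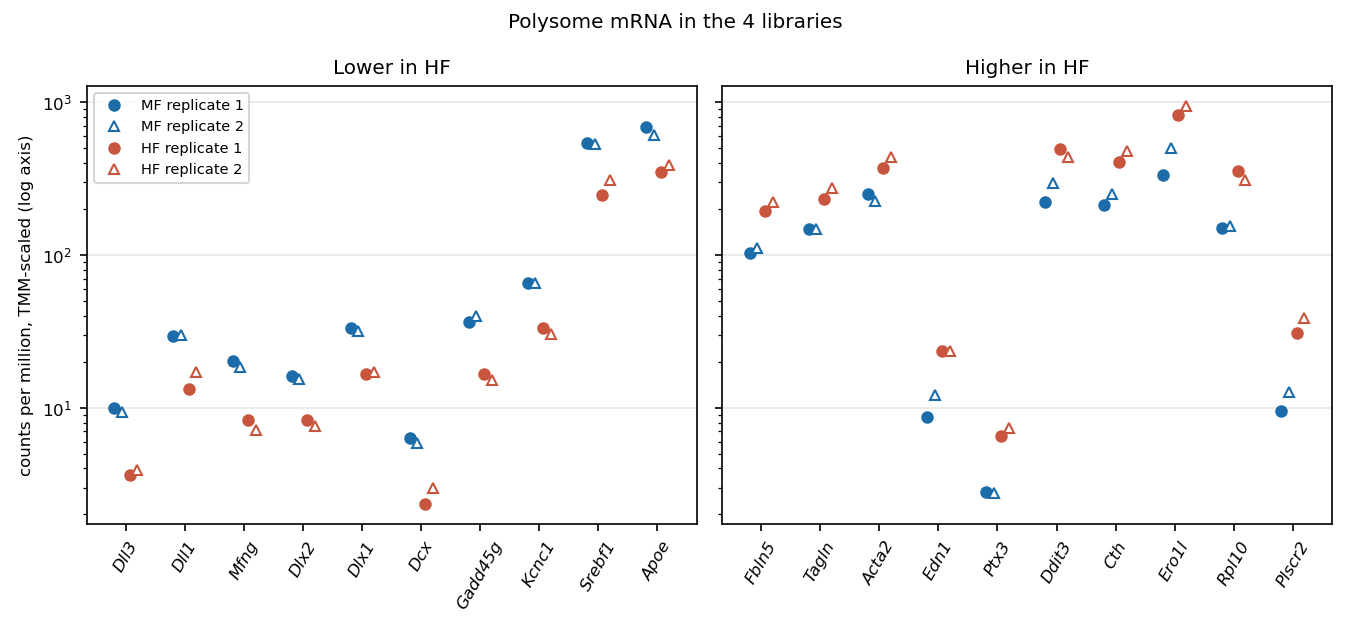
TMM-scaled CPM (log axis) of 20 genes in the 4 polysome libraries, MF in blue and HF in red, with filled circles for replicate 1 and open triangles for replicate 2. For every gene drawn the 2 HF libraries lie on 1 side of both MF libraries.

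Some ligands and modifiers of the Notch pathway were lower in HF polysomes. Of 28 pathway genes tested, none was called higher and 5 were called lower (Dll3, Dll1, Mfng, Hes6 and Nrarp), beside 3.1% of all genes, and the list's median log2 change was -0.23. Dll1, the Delta ligand of dividing progenitors (chr17:15367354-15376872), stood at 29.6 and 30.0 CPM in MF and at 13.3 and 17.1 in HF (log2 change -0.97 ± 0.16, SE; adjusted p = 0.00775). Dll3, a ligand that does not activate receptors on other cells (chr7:28293553-28302238), went from 9.95 and 9.31 CPM to 3.63 and 3.91. Hes6, a factor that favours neuron formation, went from 165 and 156 CPM to 103 and 90.1. Nrarp, a target and brake of Notch, went from 2.01 and 1.81 CPM to 0.34 and 0.36 (adjusted p = 0.0096; named because it completes the count of 5, after its values were seen). In every one of the 5, both HF libraries were below both MF libraries. The receptors did not pass the test: the log2 changes of Notch1, Notch2 and Notch3 were -0.29, -0.05 and -0.35, and that of the stem cell effector Hes1 was -0.17, with adjusted p from 0.155 to 0.844. With the GC trend removed, 4 of the 5 were still called, Hes6 being the exception, while the list's median was -0.01. With any 1 library left out, between 5 and 9 genes of the list were called lower and at most 1 higher.

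Several neuroblast genes were lower in HF polysomes as well. Of 18 neuroblast and young neuron markers tested, 5 were called lower (Dlx1, Dlx2, Gad2, Dcx and Tubb3) and 1 higher (Stmn2, from 2.28 and 2.22 CPM to 4.32 and 4.42), beside 3.1% and 2.24% of all genes. Dlx1, a homeodomain factor of inhibitory neurons, went from 33.0 and 31.9 CPM in MF to 16.6 and 17.0 in HF (log2 change -0.95 ± 0.14, SE; adjusted p = 0.00534), and Dlx2 from 16.2 and 15.4 to 8.26 and 7.58. Dcx went from 6.31 and 5.84 CPM to 2.33 and 2.96, and Gad2, an enzyme that makes the transmitter GABA, from 4.18 and 3.34 to 1.38 and 1.70. These levels are low next to the housekeeping genes, but the replicates of each dose lay close together. With the GC trend removed, Dlx1, Dcx and Gad2 were still called, at log2 changes from -1.46 for Gad2 to -0.81 for Dlx1, and no marker of the list was called higher. In total mRNA the log2 changes of the 5 genes called lower lay between -0.02 for Dlx2 and 0.20 for Dcx. Gad2 lost its call without MF replicate 1, and Stmn2 was not called with any 1 library left out. Summed over all 24 neuroblast markers, counts scaled by the library total alone, without TMM, came to 987 and 1040 CPM in MF and 928 and 911 in HF. In such bulk samples, fewer cells of a type and less RNA per cell cannot be told apart.

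Of 22 stem cell and progenitor markers tested, 1 was called higher and 1 lower, beside 2.24% and 3.1% of all genes. The list's median log2 change was -0.16. With the GC trend removed, none was called higher and 1 lower. The gene called higher in the main fit was Fabp7, a fatty acid binding protein of radial glia. It went from 667 and 730 CPM to 981 and 983 (log2 change 0.49 ± 0.13; adjusted p = 0.0405). Fabp7 was not called with the GC trend removed, nor without either MF library. Of 13 astrocyte markers tested, 4 were called lower (Apoe, Mlc1, Id3 and Fgfr3), beside 3.1% of all genes, with a list median of -0.35. The summed level of the astrocyte list, scaled by library total alone, was 2710 and 2420 CPM in MF and 1760 and 2040 in HF. Apoe, the main lipid carrier of the brain, went from 685 and 613 CPM to 351 and 387. Of the 4, Mlc1 alone was called with the GC trend removed, and Apoe alone kept its call with each library left out in turn. No marker of oligodendrocytes, microglia, endothelium or ependyma was called, of 8, 4, 5 and 5 tested. At an unadjusted p of 0.05, 1, 0, 2 and 0 of them passed, and DESeq2 called none of them but 1 oligodendrocyte marker, lower in HF.

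Of 37 genes of the Wnt pathway tested, 7 were called lower, beside 3.1% of all genes (Wnt7b, Celsr2, Celsr3, Fzd2, Fzd9, Lrp5 and Sfrp1) and none higher, and the median log2 change was -0.21. The ligand Wnt7b went from 97.6 and 100.2 CPM to 64.0 and 56.4, and the receptor Fzd2 from 61.1 and 63.1 CPM to 38.1 and 42.8. The transcripts of both are rich in G and C, 60.2% and 56.6%. With the GC trend removed, none of the 7 was called and 1 other gene of the list, Adgra2, was called higher. Without MF replicate 1, 2 of the list were called lower. In the Hedgehog pathway, Gas1, a co-receptor, was the 1 gene called of 13, from 126 and 142 CPM to 98.6 and 81.9. Gas1 has a GC content of 72.3%, and its log2 change of -0.57 became 0.19 (adjusted p = 0.504) with the trend removed.

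Markers of mural and mesenchymal cells, the contractile and matrix-forming cells around vessels, were called more often higher than lower in HF polysomes. Of 13 tested of 18 listed, 6 were called higher (Acta2, Tagln, Fbln5, Thy1, Dcn and Lum) and none lower, beside 2.24% of all genes, with a median log2 change of 0.53. Fbln5, a protein of elastic fibres (chr12:101746565-101819055), stood at 103 and 111 CPM in MF and at 193 and 223 in HF (log2 change 0.96 ± 0.13, SE; adjusted p = 0.00313). Acta2, an actin of smooth muscle, went from 251 and 225 CPM to 368 and 438, and Tagln, an actin-binding protein of the same cells, from 149 and 148 to 233 and 274. In all of these, both HF libraries were above both MF libraries. The summed level of the 18 markers, scaled by library total alone, was 1490 and 1440 CPM in MF and 1650 and 1870 in HF, and none of the 18 was at 0 in all 4 libraries. Acta2, Tagln, Fbln5, Thy1 and Dcn were called with the GC trend removed as well, and the list's median then was 0.64. Between 4 and 7 members were called higher without any 1 of the libraries. At most 1 was called lower, and that without MF replicate 2 or without HF replicate 2.

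None of these genes passed the test in total mRNA by edgeR, where the adjusted p of Fbln5, Acta2, Thy1 and Tagln was 1. The spread in that test came from the 8 libraries of both fractions together, not from the total libraries alone. At the same doses Fbln5 stood at 23.1 and 26.8 CPM in total mRNA of MF and at 13.7 and 18.8 in HF, and Acta2 at 40.6 and 45.3 against 25.6 and 33.8. The study itself, by DESeq2, called Fbln5 and Acta2 lower in HF total mRNA and reported RT-qPCR of its calls. The list's median log2 change in total mRNA was -0.39. For Fbln5 the polysome change exceeded the total change by a log2 of 1.59 ± 0.19 (SE; adjusted p = 0.00703), and for Thy1 by 1.48 ± 0.31 (adjusted p = 0.0391).

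Of 36 secreted growth factors and cytokines tested, 4 were called higher (Edn1, Ptx3, Ccl7 and Ccl2), beside 2.24% of all genes, and none lower. The median log2 change was 0.27. Edn1, a peptide that constricts vessels (chr13:42301476-42307990), went from 8.71 and 12.1 CPM to 23.4 and 23.4. Ccl2 and Ccl7, chemokines that draw monocytes, went from 14.3 and 13.1 CPM to 26.2 and 23.5 and from 1.82 and 2.29 to 5.43 and 5.80. All 4 kept their call with the GC trend removed and without each library. Of 51 other matrix genes, 7 were called higher and 8 lower, beside 2.24% and 3.1% of all genes, with a median of 0.12. Both counts lean on single libraries: 5 were higher and 0 lower without MF replicate 1, 8 and 9 without MF replicate 2, 16 and 8 without HF replicate 1, and 3 and 9 without HF replicate 2. Those called higher included Timp3, an inhibitor of matrix proteases, from 288 and 312 CPM to 465 and 510, and Dcn, a small proteoglycan. With the GC trend removed 5 of the higher calls and none of the lower ones were left. None of 25 collagens tested was called (7 at an unadjusted p of 0.05, 1 by DESeq2), and their median was -0.05, or 0.15 with the trend removed.

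Genes of the ATF4 pathway, through which cells answer a shortage of amino acids and stress of the endoplasmic reticulum (ER), were called in 1 direction. Of 30 tested, 6 were called higher (Cth, Ddit3, Slc7a3, Stc2, Atf3 and Psph), beside 2.24% of all genes, and none lower, and 3 of the 30 had a log2 change below 0. The median was 0.27, and 0.37 with the GC trend removed, when 5 of the 6 were still called. Cth, which makes cysteine, stood at 211 and 251 CPM in MF and at 405 and 482 in HF (log2 change 0.94 ± 0.14, SE; adjusted p = 0.00534). Ddit3, a stress factor known as CHOP, went from 223 and 296 CPM to 496 and 439. Psph, the last enzyme of serine synthesis, went from 322 and 331 CPM to 432 and 478. Atf4 itself stood at 864 and 994 CPM in MF and at 1241 and 1243 in HF, and did not pass (log2 change 0.42 ± 0.13; adjusted p = 0.0738; named after its values were seen). Without MF replicate 1, 2 members of the list were called, and without any 1 of the other libraries between 4 and 7.

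The ATF4 genes stood far higher in polysome than in total mRNA at both doses. Polysome CPM were scaled over the 4 polysome libraries and total CPM over the 8 libraries of both fractions, so the scales are not the same. Over the 30 genes, the level in polysome mRNA exceeded that in total mRNA by a median log2 of 3.28 in MF and 3.65 in HF (log2 of mean CPM + 0.5), while over 13226 genes the median was 0.01 in MF. In MF, 23 of the 30 were more than 4-fold higher in polysome mRNA, against 1.19% of all genes. Trib3, a pseudokinase induced by ATF4, stood at 0.712 to 1.14 CPM in the 4 total libraries and at 230 to 311 CPM in the 4 polysome libraries. Asns, asparagine synthetase, stood at 21.3 to 25.0 CPM in total and at 879 to 1307 in polysome mRNA. Trib3, Asns and Chac1 were not called between the doses in polysome mRNA, and they were picked for this description after their values were seen. Genes called higher in HF also stood higher in polysome than in total mRNA, by a median log2 of 0.61 in MF, against 0.10 for genes called lower. These medians share the MF polysome libraries with the comparison of doses. The labels do not say whether polysome and total RNA came from the same cultures. If they did not, total mRNA is no baseline for the polysome change of these genes or of any other. The source of the gap was not tested.

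**Figure D3:**
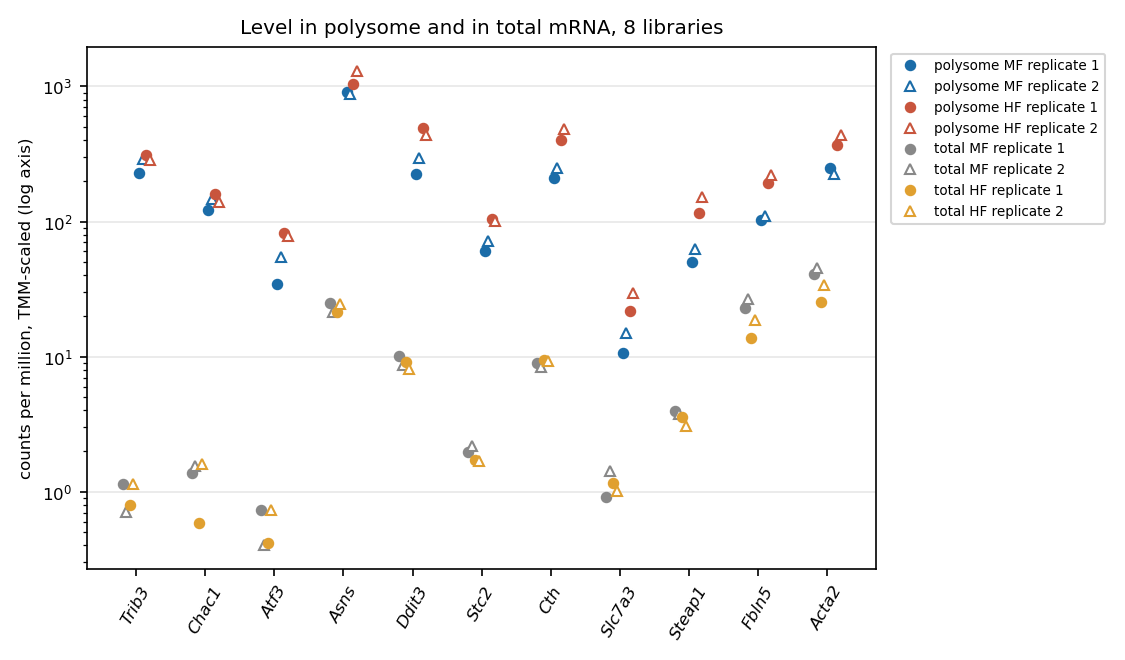
TMM-scaled CPM (log axis) of 11 genes in the polysome libraries (blue and red) and the total libraries (grey and orange) of MF and HF. Polysome values were scaled over the 4 polysome libraries and total values over the 8 libraries of both fractions. For every gene drawn, the 4 polysome libraries lie above the 4 total libraries, and Trib3 shows the widest gap, 230 CPM or more against at most 1.14.

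Of 20 tRNA synthetases tested, enzymes that load amino acids onto tRNA, 3 were called higher (Rars, Wars and Farsb), beside 2.24% of all genes, and none lower, and the median log2 change was 0.23, or 0.24 with the GC trend removed. Rars, the arginine enzyme, went from 434 and 473 CPM to 672 and 869. Wars, the tryptophan enzyme, went from 491 and 543 CPM to 762 and 825. The number called higher was 0 without MF replicate 1 and 10 without HF replicate 1. Of 25 genes of ER chaperones and the unfolded protein response, 4 were called higher and 1 lower, beside 2.24% and 3.1% of all genes. Their median was 0.19. Ero1l, which oxidises new disulphide bonds, went from 331 and 500 CPM to 828 and 945, and the chaperone Hspa5 (BiP) from 701 and 848 to 1258 and 1448. Ero1l, Hspa5 and Dnajb9 were called with the trend removed as well. Without MF replicate 1 the list had 1 call, without HF replicate 1 it had 8, and without HF replicate 2 it had 2.

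Of 34 folate and single-carbon enzymes, 3 were called higher and 1 lower, beside 2.24% and 3.1% of all genes, and the median was 0.04. Besides Cth and Psph the higher one was Aldh1l2, the mitochondrial enzyme that oxidises formyl-folate, which went from 78.3 and 122 CPM to 163 and 182. The lower one was Slc46a1, the proton-coupled folate transporter, at 17.2 and 14.4 CPM in MF and 10.1 and 9.51 in HF (log2 change -0.68 ± 0.18; adjusted p = 0.0417). Neither Aldh1l2 nor Slc46a1 was called with the GC trend removed or with MF replicate 1 or HF replicate 2 left out, and Aldh1l2 also lost its call without HF replicate 1. None of 15 genes of purine synthesis was called (median 0.10, with 4 at an unadjusted p of 0.05 and 1 by DESeq2). Of 15 genes of pyrimidine and thymidylate synthesis 1 was called, Tk1, lower in HF (log2 change -0.51 ± 0.13), beside 3.1% of all genes. Tk1 was not called by edgeR with the GC trend removed (log2 change -0.32; adjusted p = 0.224). None of 14 RNA cytosine methyltransferases and readers of methylated cytosine was called (4 at an unadjusted p of 0.05, 1 by DESeq2), and their median was 0.25. Nsun2, which methylates cytosine in mRNA and tRNA, stood at 197 and 189 CPM in MF and at 227 and 278 in HF (log2 change 0.39 ± 0.13; adjusted p = 0.101), and the reader Ybx1 at 532 and 511 against 528 and 518. Of 16 genes of DNA methylation, Gadd45g, Dnmt1 and Mbd3 were called lower, beside 3.1% of all genes, although the median of the list was 0.14. With the GC trend removed, Gadd45g alone was called by edgeR, and Dnmt1 stood at -0.54 (adjusted p = 0.13). Mbd3 has a GC content of 62.9%, and its log2 change of -0.47 became 0.01 with the trend removed.

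Of 28 genes of sterol and fatty acid synthesis tested, 8 were called lower in HF, beside 3.1% of all genes, among them Srebf1, Srebf2, Fasn and Mvk, and none higher, and the median was -0.27 with and without the GC trend. Srebf1, the transcription factor that turns on fatty acid synthesis, went from 543 and 530 CPM to 247 and 308 (log2 change -0.95 ± 0.14, SE; adjusted p = 0.00534). Srebf2, its relative that turns on cholesterol synthesis, went from 197 and 200.5 CPM to 137 and 131, and lost its call without either MF library. Both HF libraries were below both MF libraries in both genes. With the trend removed, Srebf1 and Scd1 were called lower. Without MF replicate 1 the list had 1 call, and without any 1 of the others between 7 and 9.

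All 30 genes of mitosis had a log2 change below 0. Of them 5 were called lower (Plk1, Cenpa, Aurkb, Cdc20 and Cenpf), beside 3.1% of all genes, and the median was -0.32. Plk1, a kinase of mitotic entry, went from 74.9 and 58.6 CPM to 33.7 and 43.5, and Cdc20, which starts the exit from mitosis, from 176 and 134 to 86.3 and 111. Their transcripts are poor in G and C as a group, with a median of 46.4%, and with the GC trend removed the median was -0.44 with 5 called lower, Cenpf, Cenpa, Nusap1, Ccna2 and Cenpe. Plk1, Aurkb and Cdc20 were then not called, and the transcripts of Plk1 and Cdc20 have a GC content of 56.0% and 55.6%. In total mRNA the median of the list was 0.02. Of 39 genes of DNA replication, 34 had a negative value and 4 were called lower (Pold1, Cdt1, Lig1 and E2f1), beside 3.1% of all genes. Their median was -0.20. None of the 39 was called with the trend removed, when the median was -0.25. Without MF replicate 1, 1 mitosis gene and no replication gene was called.

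Of 79 cytosolic ribosomal protein genes, Rpl10 was called higher and Rpl36, Fau and Rplp1 lower, beside 2.24% and 3.1% of all genes. The median was 0.05. Without HF replicate 1, 1 was called higher and 10 lower. Rpl10, a protein of the large subunit near its catalytic centre (chrX:74270812-74273135), stood at 149 and 156 CPM in MF and at 357 and 307 in HF (log2 change 1.12 ± 0.13, SE; adjusted p = 0.00164), and at 257 to 287 CPM in the 4 total libraries. Rpl10 kept its call with the GC trend removed and without each library, the other 3 did not. Like most ribosomal protein genes, it has near-identical processed copies between which RSEM divides reads, so its value is uncertain. The processed copy Rpl14-ps1 went from 13.0 and 20.1 CPM to 84.9 and 75.9 under the same doubt. Gm37375 and Gm37385, listed with identical values in every library, went from 2.48 and 2.82 CPM to 0.34 and 0.20, and the unmatched entry ENSMUSG00000103235 from 3.99 and 5.80 to 24.3 and 18.3. Of 38 translation factors only Eef2, the elongation factor that moves the ribosome along, was called, lower in HF (log2 change -0.47 ± 0.13). Eef2 lost its call with the GC trend removed and in most fits with 1 library left out. DESeq2 called 3 of the list higher and 1 lower.

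mRNAs made in the mitochondrion, which cytosolic ribosomes do not read, took 0.536% and 0.725% of the counts in MF and 0.580% and 0.2997% in HF. Of 12 tested, 11 had a negative log2 change, with a median of -0.49, which was 0.03 without HF replicate 2, -0.15 without MF replicate 2, -0.81 without MF replicate 1 and -1.37 without HF replicate 1, and -0.71 with the GC trend removed. The 1 call was mt-Nd3, with 39 and 19 counts in the MF libraries and 0 in both HF libraries, at least 9.53-fold lower against a floor of 3 counts per library, for counting error only. In total mRNA mt-Nd3 had 58 to 190 counts. Of 76 mitochondrial ribosomal proteins 2 were called higher, Mrpl24 and Mrps31, and 1 lower, Mrps12, beside 2.24% and 3.1% of all genes. Mrpl24 alone of them was called with the GC trend removed. None of 37 nuclear-encoded subunits of complex I or of 38 of complexes II to V was called (5 of each at an unadjusted p of 0.05, 3 and 1 by DESeq2), and Ndufc2, of complex I, was called lower with the GC trend removed.

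**Figure D4:**
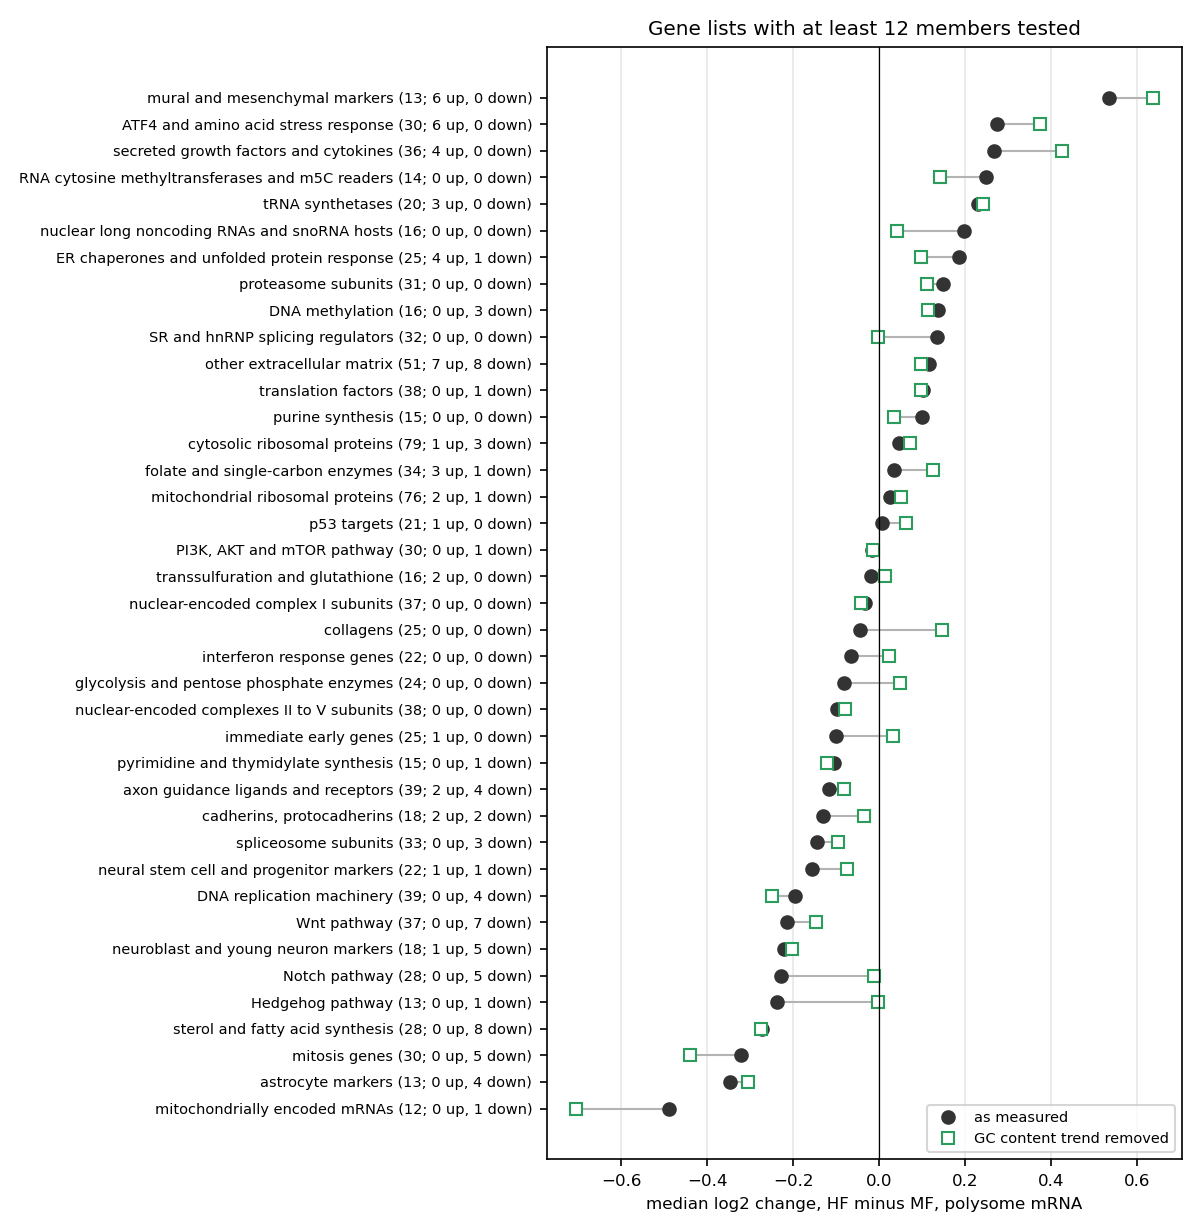
Median log2 change, HF minus MF, of the members tested in 39 lists with at least 12 such members, as measured (filled) and with the GC trend removed (open squares), with the number tested and called beside each name. The mural and mesenchymal list lies highest (0.53) and the mitochondrially encoded mRNAs lowest (-0.49). The Notch and Hedgehog medians move to near 0 when the trend is removed.

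The p53 targets had 1 call of 21 (Plk2, from 191 and 215 CPM to 271 and 326), the immediate early genes 1 of 25 (Atf3), and the PI3K, AKT and mTOR pathway 1 of 30 (Pik3r2, lower). None of these 3 was called with the GC trend removed, when Fosl1 was called higher among the immediate early genes. None of 24 glycolysis and pentose phosphate enzymes, 22 interferon response genes, 31 proteasome subunits or 32 splicing regulators of the SR and hnRNP families was called. At an unadjusted p of 0.05, 6, 1, 6 and 8 of them passed, and DESeq2 called 2, 0, 2 and 2. Of 33 spliceosome subunits 3 were called lower, of which Sf3b5, from 28.1 and 37.8 CPM to 20.4 and 16.8, was also called with the GC trend removed. Of 7 metallothioneins and zinc response genes tested, the metal-binding proteins Mt1 and Mt3 were called lower, Mt1 from 35.2 and 38.8 CPM to 22.0 and 18.1, and Mt1 alone with the GC trend removed. Of 18 cadherins and protocadherins, Cdh6 and Pcdh19 were called higher and Celsr2 and Celsr3 lower. Among 39 axon guidance genes, the secreted semaphorins Sema3c and Sema3e were higher and the ephrin receptors Ephb3 and Ephb4, with Sema4b and Sema5b, were lower. With the trend removed, Sema3c was the 1 left of these last 2 lists. Over all genes tested, 2.24% were called higher and 3.1% lower.

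Of the 3 genes that the study followed by western blot, Ptx3, a secreted pattern recognition protein, stood at 2.79 and 2.78 CPM in MF and at 6.54 and 7.42 in HF (log2 change 1.33 ± 0.23, SE; adjusted p = 0.0092). Ndufa13, a complex I subunit, stood at 161 and 145 against 125 and 101 CPM, and Gng11, a G protein subunit, at 7.32 and 6.53 against 9.87 and 8.40, and neither passed (adjusted p = 0.0741 and 0.233). In the study, Ptx3 had higher translation efficiency and protein in HF. Ndufa13 was lower and Gng11 higher by both measures in LF, a dose not compared here. Another 8 genes had been picked by the study for a change in total mRNA, on samples of this series, so they are not independent evidence of a direction. By DESeq2 the study called Fbln5, Ogn, Ptch1, Acta2, Slit3 and Col8a1 lower in HF total mRNA. It called Ednrb and Rpl14-ps1 higher there, and reported RT-qPCR of its calls. Of the 8, Fbln5, Acta2 and Rpl14-ps1 were called higher in HF polysomes. All 8 had a log2 change above 0 there, from 0.21 for Ptch1, with Slit3 just below it, to 2.27 for Rpl14-ps1. For Ogn, at 9.95 and 22.2 CPM in MF and 29.5 and 17.2 in HF, the doses overlapped.

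Whether the polysome change differed from the change of total mRNA was tested in the 8 libraries of both fractions. Here too it is not known whether both fractions came from the same cultures, and if not, total mRNA is no baseline. Of 14243 genes 217 were called (1.52%), 94 with the polysome change above the total change (0.66%) and 123 with it below (0.864%). Of the 707 genes called in polysome mRNA, 199 were among the 217, and 262 of the 707 had a total change of the other sign. Both tests used the same 4 polysome libraries, so the overlap of 199 is partly built in. Other signs were not counted over all genes, so the 262 show no trait of the called genes. For Kcnc1 the polysome change minus the total change was -1.15 ± 0.12 (log2, SE; adjusted p = 0.00439), and in total mRNA it stood at 123 to 136 CPM in all 4 libraries. For Plscr2 the polysome change was above the total change by 2.31 ± 0.26, for Ero1l by 1.06 and for Hspa5 by 0.83. For Dll1 and Dlx1 the polysome change minus the total change was -0.91 and -0.93. This count is not stable. It was 9 and 4 without total MF replicate 1 and 2, 3 and 19 without total HF replicate 1 and 2, 44 and 775 without polysome MF replicate 1 and 2, 1472 and 232 without polysome HF replicate 1 and 2, and 72 (0.51%) with the GC trend removed. It was 59 with the replicate number as a block, and 0 in edgeR with all 12 libraries in the fit (599 at an unadjusted p of 0.05).

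**Figure D5:**
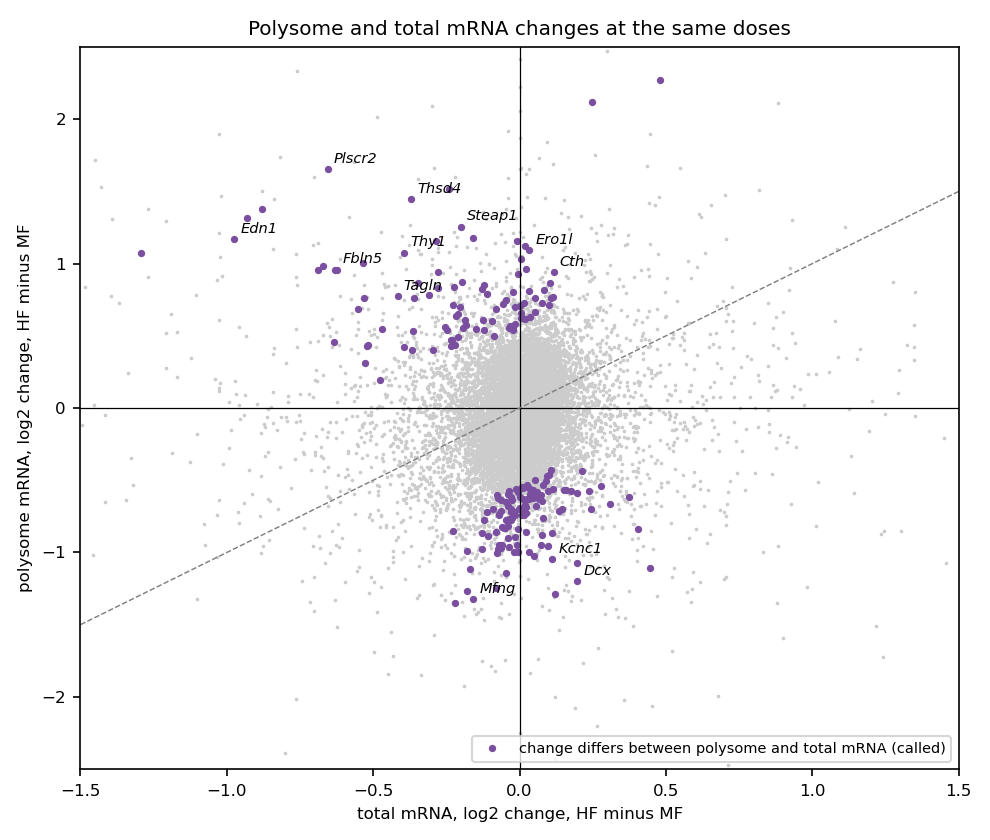
Log2 change, HF minus MF, in total mRNA (horizontal) and polysome mRNA (vertical) for 13167 genes, with those whose 2 changes differ by the test in purple and the line of equal change dashed. 59 genes lie outside the axes. Fbln5, Tagln, Thy1, Edn1 and Plscr2 lie below 0 in total mRNA and above 0 in polysome mRNA. None of them passed the test in total mRNA by edgeR, whose spread came from the 8 libraries of both fractions.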

How the data were processed

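Polysome libraries of MF and HF (2 each) were compared, and the 4 total mRNA libraries of the same doses were used beside them. As the labels and the methods of the study state, the authors trimmed the read pairs, aligned them to mm10 with Bowtie2 2.2.9 and assigned them to genes with RSEM 1.3.0, which divides pairs that fit several genes. The authors deposited RSEM's expected counts per gene, which are not normalized, and TPM, used here for the agreement of replicates alone. Strand setting and annotation release are not given in the sources used here. Of 43432 gene identifiers, 42548 (97.96%) matched GENCODE M21, which gave names, positions and base composition.

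Expected counts were rounded and tested with edgeR 4.0.16 (quasi-likelihood, TMM scaling, its filter on low counts, Benjamini-Hochberg adjustment over all genes tested) in R 4.3.3, on the 4 polysome libraries. Calls needed a fold above 1.2 and an adjusted p below 0.05. The difference between the polysome and total changes was an interaction term over 8 libraries. The changes in total mRNA came from the same fit, in which both fractions share the estimate of the spread. Total CPM were scaled by TMM over these 8 libraries, and polysome CPM over the 4 polysome libraries. The GC trend was a loess curve (span 0.3) per library, entered as an offset. Alternatives used DESeq2 1.42.0, limma 3.58.1, other scalings and filters, and each library left out, and the fits were tested on simulated data.

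Genes were named by rule: protein-coding genes only, the 15 largest folds each way among called genes with a mean of at least 5 CPM, up to 4 called members of each list by smallest p (the 2 most abundant where fewer than 2 were called), the study's genes, Nes, Sox2 and Gapdh, and at most 2 uncertain entries each way. Other genes, named to complete a count or singled out, were chosen after their values were seen. The members and lists were chosen with earlier results of these data known. Results for some genes are not reported here.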

Additional observations from a re-analysis of the deposited data

Results flagged for a closer look

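The polysome change differed from the total change, by the interaction test in edgeR, for 217 genes. Among the genes named here, those below were called both with and without the GC trend removed, and the values are the log2 polysome change minus the log2 total change, HF against MF.

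Genes of neurons and their progenitors lay below 0, with -1.4 for Gad2, -1.39 for Dcx, -1.16 for Gadd45g, -1.16 for Mfng, -1.15 for Kcnc1 and -0.93 for Dlx1. The fitted value of mt-Nd3 was -8.63, which depends on the prior count, since both HF polysome libraries had no count.

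Genes of matrix and contractile cells lay above 0, with 0.68 for Slit3, 0.77 for Col8a1, 0.91 for Timp3, 1.2 for Tagln, 1.3 for Acta2, 1.48 for Thy1, 1.59 for Fbln5 and 1.82 for Thsd4. So did the stress and chaperone genes, with 0.83 for Hspa5, 0.98 for Ddit3 and 1.06 for Ero1l. Fbln5, Acta2, Slit3 and Col8a1 had been picked by the study as lower in HF total mRNA of this series. That choice by itself raises their values, so they are not independent evidence of a direction. In polysome mRNA, Slit3 and Col8a1 were not called by edgeR (adjusted p = 0.404 and 0.0813). The remaining values were 0.6 for Wars, 0.62 for Mrpl24, 0.95 for Cdh6, 1.11 for Rpl10, 1.46 for Steap1, 1.8 for Rpl14-ps1, 2.15 for Edn1 and 2.31 for Plscr2. The count of such genes ranged from 3 to 1472 with 1 library left out, so that single calls rest on few libraries.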

How the results depend on the processing

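The count of 707 stayed within 1.5 times under DESeq2 (995), limma voom (606), DESeq2 size factors (710), library totals (705), a minimum of 50 counts (764), whole counts alone (801) and a length trend removed (730). It was 1479 with no filter on low counts, 1439 at an adjusted p under 0.1, 401 with a trend on GC at the last codon position removed and 192 with the transcript GC trend removed. With all 6 polysome libraries in the fit it was 0 in edgeR (453 at an unadjusted p of 0.05). Leaving out 1 library gave 227 to 1657, and with the GC trend removed 108, 421, 211 and 129. The cause was not tested.

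The labels do not say whether the replicate numbers pair the samples. Across genes the replicate differences of MF and HF correlated at -0.17, which cannot decide it. With the replicate block 601 genes were called, and 245 with the block and the GC trend removed. The crossed pairing, chosen after seeing the data, gave 3211.

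For the difference between polysome and total changes, the count of 217 was 491 with DESeq2, 179 with library totals, 59 with the replicate block, 72 with the GC trend removed, 0 with all 12 libraries (599 at an unadjusted p of 0.05) and 3 to 1472 with 1 library left out.

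Of the called genes named, 2 changed sign. Mbd3, at -0.47, was 0.01 with the GC trend removed, 0.01 with the block as well, and 0.04 and 0.05 without MF or HF replicate 1. Gas1, at -0.57, was 0.19 with the trend removed, 0.18 with the block, and 0.21, 0.18, 0.32 and 0.05 with the trend removed and each library left out. With 2 libraries a dose and 2 residual degrees of freedom, no fold under 1.35 was called, and a gene not called is not shown to be equal at both doses.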
